A study of Homo sapiens with 4 samples.

Results

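The genes of cholesterol and fatty acid synthesis were examined in MDA-MB-361 cells that express shRNAs against DCD. A list of 35 genes was used: 19 of the sterol arm, 4 SREBP regulators and 12 of the fatty acid arm. A gene was counted as measured when at least 1 probe set was annotated to it alone, and it was then read by the brightest of these probe sets on average over the arrays. By this rule 32 members were measured (17 of the sterol arm, all 4 regulators and 11 of the fatty acid arm), out of 19775 genes with a probe set of their own. FDFT1 had no probe set in the annotation used, and the 2 probe sets of CYP51A1 and the 3 of FADS1 were shared with another gene. All 32 measured members passed the filter on dim probe sets, as did 12726 genes in all.

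MDA-MB-361 is an established human HER2+ breast cancer cell line. DCD encodes dermcidin, a small secreted protein. The cells had received lentiviruses derived from the pLKO-puro vector, and RNA was hybridized to Affymetrix U133 Plus 2.0 arrays, 1 array for each of IBC-I, IBC-II and IBC-III, which express shRNAs to different regions of the DCD transcript, and 1 array for cells carrying the pLKO control vector alone. The labels call the 3 derivatives clones 1, 2 and 3, and the Roman numerals were taken here to follow these numbers. Each derivative therefore had no replicate, all 3 comparisons shared the same pLKO array, and a hairpin cannot be told apart from the cell derivative that carries it.

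The arrays differed in signal and in RNA quality. The median deposited intensity was 20 (IBC-I), 24.7 (IBC-II), 13.4 (IBC-III) and 20.6 (pLKO), so values were compared after quantile normalization, with intensities under a floor of 16 set to 16. The 3′/5′ signal ratio of the ACTB controls, which grows as RNA is degraded or incompletely copied, was 9.67 (IBC-I), 2.58 (IBC-II), 42.6 (IBC-III) and 5.29 (pLKO). IBC-III also correlated least with pLKO over the probe sets that passed the filter on dim probe sets. There r was 0.72, against 0.89 for IBC-I and 0.94 for IBC-II, as a description. The DCD probe set lay under the floor on all 4 arrays and gave no check of the knockdown. All 7 luminal epithelium markers were measured above the floor on every array, at deposited intensities of 359.2 to 9776. Their summed normalized intensity was 31220 (IBC-I), 29161 (IBC-II), 22796 (IBC-III) and 18911 (pLKO). GATA3, a luminal transcription factor, was 4.28-fold, 2.59-fold and 6.91-fold above pLKO, and KRT8 and KRT18 were also above it in every array after normalization. KRT19, EPCAM, CDH1 and ERBB2 were above pLKO in IBC-I and IBC-II. In IBC-III they were below it, with log2 differences of -1.45, -1.155, -1.12 and -1.64. Some directions changed in the intensities as deposited. The deposited ratios to pLKO in IBC-III were 0.42 for KRT8 and 0.88 for KRT18, against 2.98 for GATA3. In IBC-I those of KRT19, EPCAM, CDH1 and ERBB2 were 0.62, 0.67, 0.87 and 0.73. The median log2 difference of the 7 markers was 0.55 (IBC-I), 0.56 (IBC-II) and -1.12 (IBC-III). The part of these markers in the differences of the members was not tested. Of 10 markers of leukocytes, endothelium, fibroblasts, adipocytes and basal epithelium, 4 lay at the floor on every array and 3 passed the filter, and the summed normalized intensity of all 10 was 447 (IBC-I), 379 (IBC-II), 656 (IBC-III) and 389 (pLKO).

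Cells make cholesterol from acetyl-CoA through the mevalonate pathway, squalene and lanosterol, and they make fatty acids from the same acetyl-CoA by way of malonyl-CoA and palmitate. The SREBP transcription factors drive both routes. When membrane sterol is low, SCAP carries the SREBP precursors from the endoplasmic reticulum to the Golgi for cleavage, and when sterol is plentiful INSIG proteins hold SCAP back. SREBP-2, from SREBF2, acts mainly on sterol genes, and SREBP-1, from SREBF1, acts mainly on fatty acid genes. HER2-positive breast cancer cells are known for high expression of lipogenic enzymes such as FASN.

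SREBP binds sterol regulatory elements together with NF-Y, at CCAAT boxes, and Sp1, at GC boxes, so the start sites of the members were searched for these letters. RefSeq windows of the GRCh38.p14 build, from 250 bases before to 50 bases after a start site, matched 31 of the 35 listed genes in 44 windows, and ACAT2, FDFT1, SQLE and FASN were not matched. Both strands were searched. CCAAT was found in 16 of 21 sterol arm windows (76.2%), in 2 of 4 regulator windows and in 9 of 19 fatty acid arm windows (47.4%), beside 34.6% of all 35116 windows. GGGCGG was found in 19 of 21 sterol arm windows (90.5%), in 4 of 4 regulator windows and in 14 of 19 fatty acid arm windows (73.7%), beside 44.95% of all windows. The pattern TCACNCCAC, a form of the sterol regulatory element, was found in 1.13% of all windows and in 1 member window, that of SREBF2. Windows of the same gene can overlap, and a match describes the letters only. The windows printed here are those of SC5D and STARD4, the 2 sterol arm genes at least 1.5-fold from pLKO on the same side in every comparison, and that of SREBF2 for its match. Capitals mark CCAAT or its reverse complement ATTGG, and in SREBF2 also the TCACNCCAC match, which shares no base with the CCAAT box.
SC5D, chr11:121292521-121292820, plus strand: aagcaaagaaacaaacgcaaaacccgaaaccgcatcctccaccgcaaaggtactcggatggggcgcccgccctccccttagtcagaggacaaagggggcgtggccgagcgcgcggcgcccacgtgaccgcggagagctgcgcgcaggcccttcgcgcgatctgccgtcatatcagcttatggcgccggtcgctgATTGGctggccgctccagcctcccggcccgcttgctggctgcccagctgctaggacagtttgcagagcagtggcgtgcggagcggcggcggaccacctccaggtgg
STARD4, chr5:111512486-111512785, minus strand: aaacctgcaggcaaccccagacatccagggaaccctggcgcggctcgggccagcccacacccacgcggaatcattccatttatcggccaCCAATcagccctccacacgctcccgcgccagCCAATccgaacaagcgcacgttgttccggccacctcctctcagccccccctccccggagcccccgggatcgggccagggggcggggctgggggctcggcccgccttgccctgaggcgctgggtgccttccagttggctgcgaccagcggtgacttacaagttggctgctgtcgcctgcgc
SREBF2, chr22:41832855-41833154, plus strand: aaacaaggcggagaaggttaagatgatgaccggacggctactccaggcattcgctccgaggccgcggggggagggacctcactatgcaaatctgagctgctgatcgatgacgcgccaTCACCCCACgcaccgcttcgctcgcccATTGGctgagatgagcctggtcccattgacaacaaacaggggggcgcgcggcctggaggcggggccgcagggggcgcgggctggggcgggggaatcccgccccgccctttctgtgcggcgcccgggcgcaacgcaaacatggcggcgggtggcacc
The SREBF2 window also held 3 GC boxes, 1 pair of which overlapped, and the windows of SC5D and STARD4 held 1 GC box each.

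The genes of the 2 arms did not shift one way in the DCD shRNA arrays. Of the 32 members, 8 were above pLKO in all 3 arrays, 8 were below it in all 3 and 16 lay on both sides, while 18.9% of all genes tested were above pLKO in all 3 arrays and 21.3% below. At 1.5-fold or more in every comparison, SC5D and LPIN1 were higher than pLKO (2 members, 6.25%, beside 2.74% of all genes tested) and STARD4 and FADS2 were lower (2 members, 6.25%, beside 3.43%). Without IBC-II, and with the other arrays normalized again, 4 members were higher (beside 9.44% of all genes tested) and 4 lower (beside 11%). Without IBC-I, 2 were higher (beside 4.91%) and 2 lower (beside 6.35%), and without IBC-III, 2 were higher (beside 6.51%) and 2 lower (beside 6.44%). In limma with Benjamini-Hochberg adjustment over all 27307 probe sets tested, no member passed and the smallest adjusted p of a member was 0.9998. No member had an unadjusted p under 0.05 in the same fit, and over all probe sets 0 passed after adjustment while 0.315% (higher) and 0.458% (lower) had an unadjusted p under 0.05. The fit had 2 residual degrees of freedom, from 3 arrays that carry different hairpins, and it assumed that the lone pLKO array varied like them. An exact permutation test of 3 arrays against 1 cannot go below p = 0.25 one-sided or 0.5 two-sided, so the values below are descriptions of these 4 arrays. In bulk RNA, fewer cells that express a gene and less RNA per cell cannot be told apart.

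**Figure D1:**
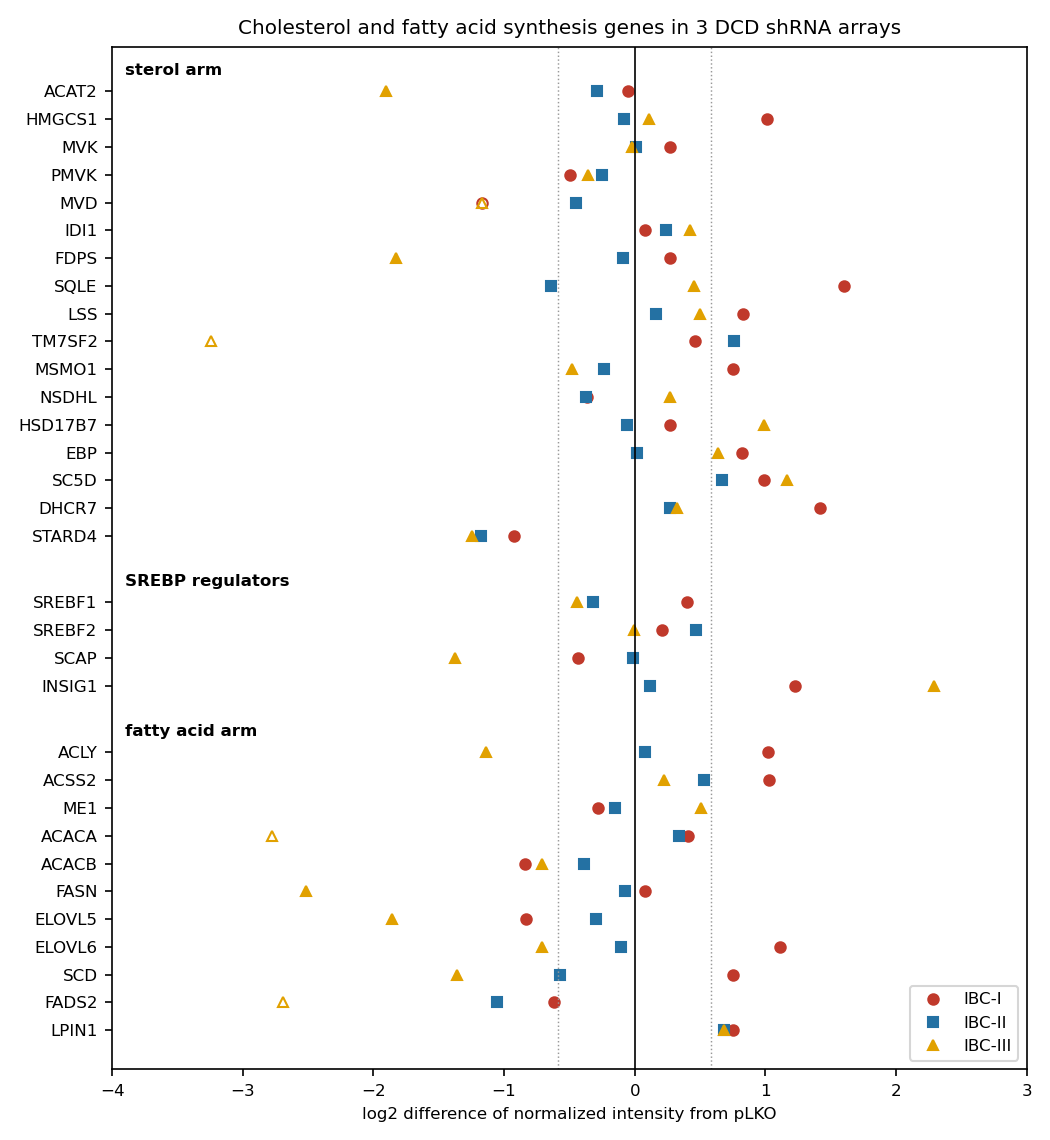
Each symbol is the log2 difference in normalized intensity between a DCD shRNA array and the pLKO array (x axis) for 1 of the 32 measured members (rows, by group), with dotted lines at 1.5-fold and open symbols where the DCD shRNA array lay at the floor. SC5D and LPIN1 lie right of the upper dotted line and STARD4 and FADS2 left of the lower one in all 3 arrays, while most rows have symbols on both sides of 0 or within the dotted lines. SC5D and LPIN1 do not pass 1.5-fold in all 3 arrays when each array is centred on its median or left as deposited.

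In the first steps of the sterol arm, from acetyl-CoA to isopentenyl units, differences were mostly small. HMGCS1, which forms HMG-CoA, had a normalized intensity of 345 (IBC-I), 161 (IBC-II), 184 (IBC-III) and 171 (pLKO). It was thus 2.02-fold higher in IBC-I and within 1.08-fold of pLKO in IBC-II and IBC-III. ACAT2, the cytosolic acetoacetyl-CoA thiolase, was at 120 (IBC-I), 101 (IBC-II), 33.1 (IBC-III) and 124 (pLKO), so that only IBC-III stood apart, 3.74-fold lower. By their brightest probe sets, the kinases MVK and PMVK stayed within 1.41-fold of pLKO in each array, PMVK below it in all 3. Other tested probe sets of MVK lay further from pLKO. By its brightest probe set, IDI1, the isopentenyl diphosphate isomerase, was 1.06-fold, 1.18-fold and 1.34-fold higher in IBC-I, IBC-II and IBC-III. Its next brightest probe set gave log2 differences of 0.24, 0.46 and -0.58, and its other tested probe sets also lay on both sides of pLKO. MVD, which decarboxylates mevalonate diphosphate, was at the floor of 16 in IBC-I and IBC-III, at 26.3 in IBC-II and at 36 in pLKO.

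From farnesyl units to lanosterol, all 3 measured genes were highest in IBC-I. SQLE, the squalene epoxidase, had a normalized intensity of 1455 (IBC-I), 307 (IBC-II), 657 (IBC-III) and 480 (pLKO). IBC-I was thus 3.03-fold above pLKO and IBC-III 1.37-fold above it, while IBC-II was 1.56-fold below. FDPS, the farnesyl diphosphate synthase, was at 174 (IBC-I), 136 (IBC-II), 40.8 (IBC-III) and 145 (pLKO), which placed IBC-III 3.55-fold lower and the others near pLKO. LSS, which closes the sterol rings, was above pLKO in every array, by 1.78-fold, 1.12-fold and 1.42-fold in IBC-I, IBC-II and IBC-III.

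The 7 measured genes from lanosterol to cholesterol had a median log2 difference of 0.75 (IBC-I), 0.02 (IBC-II) and 0.33 (IBC-III). SC5D, the lathosterol oxidase, had a normalized intensity of 358 (IBC-I), 286 (IBC-II), 403 (IBC-III) and 180 (pLKO). All 3 DCD shRNA arrays were above pLKO, by 1.99-fold, 1.59-fold and 2.24-fold, with a mean log2 difference of 0.94 ± 0.25 (SD, n = 3 arrays with different hairpins; limma, unadjusted p = 0.20, adjusted p = 0.9998). By its brightest probe set, DHCR7, which makes cholesterol from 7-dehydrocholesterol, was 2.68-fold higher in IBC-I, at 342 against 128 in pLKO. It was 1.20-fold and 1.25-fold higher in IBC-II and IBC-III by this probe set. EBP, a sterol isomerase, was above pLKO by 1.77-fold (IBC-I), 1.01-fold (IBC-II) and 1.55-fold (IBC-III). MSMO1, a methylsterol oxidase, was 1.69-fold higher in IBC-I and 1.18-fold and 1.397-fold lower in IBC-II and IBC-III. NSDHL, a sterol dehydrogenase, stayed within 1.30-fold of pLKO by its brightest probe set. Its other probe set gave log2 differences of -0.39, -0.18 and -1.66. HSD17B7, a sterol ketone reductase, was highest in IBC-III, 1.98-fold above pLKO, by a probe set whose type can cross-hybridize, as can that of IDI1. TM7SF2, a sterol reductase, was at 208 (IBC-I), 257 (IBC-II) and 152 (pLKO) but at the floor in IBC-III, so it was at least 9.47-fold lower there.

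STARD4, which carries sterol between membranes, went the other way from SC5D. Its normalized intensity was 34.5 (IBC-I), 28.9 (IBC-II), 27.5 (IBC-III) and 65.3 (pLKO). The 3 DCD shRNA arrays lay close together and all below pLKO, by 1.89-fold, 2.26-fold and 2.37-fold, with a mean log2 difference of -1.12 ± 0.17 (SD, n = 3 arrays; limma, unadjusted p = 0.13, adjusted p = 0.9998). This was the smallest unadjusted p of any member. STARD4 has 1 probe set on the array.

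**Figure D2:**
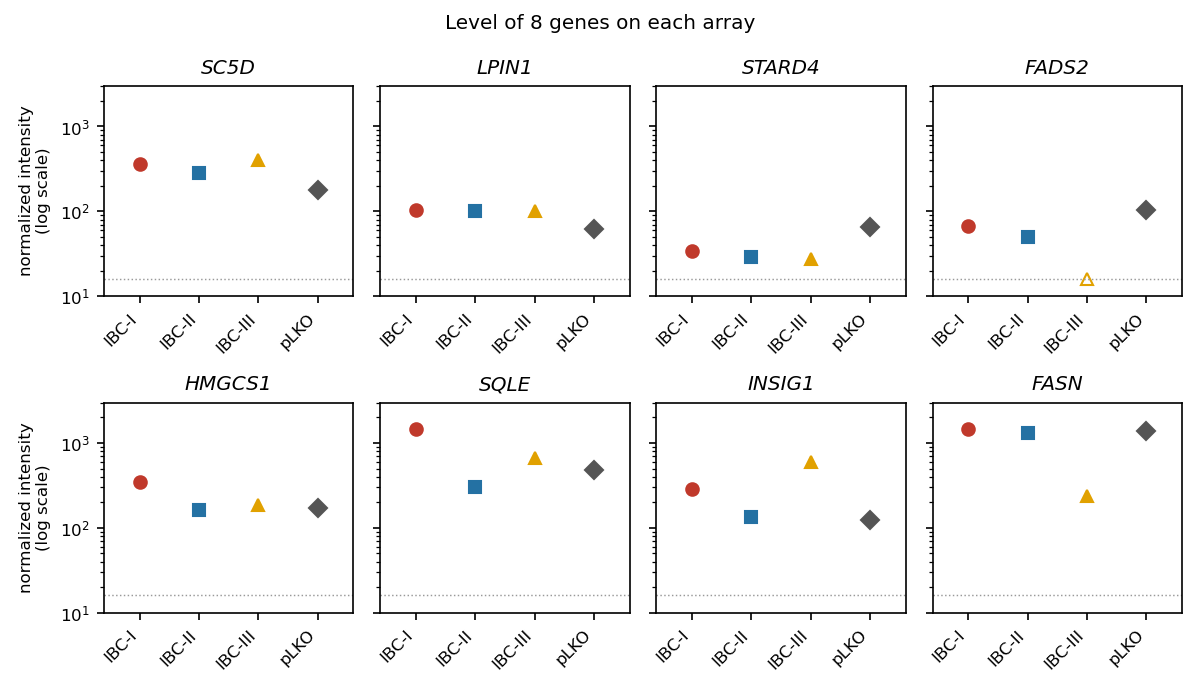
Each panel gives the normalized intensity of 1 gene (y axis, log scale) in IBC-I, IBC-II, IBC-III and pLKO, 1 array each, with a dotted line at the floor of 16 and an open symbol for a value at the floor. In SC5D and LPIN1 the 3 DCD shRNA arrays lie above pLKO and in STARD4 and FADS2 below it, whereas HMGCS1, SQLE, INSIG1 and FASN each have 1 or more arrays close to pLKO or on its other side.

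Of the 4 SREBP regulators, INSIG1 lay furthest from pLKO in IBC-I and IBC-III by the brightest probe sets, and SREBF2 in IBC-II. INSIG1, itself a target of SREBP, had a normalized intensity of 288 (IBC-I), 133.4 (IBC-II), 601 (IBC-III) and 123 (pLKO). It was 2.34-fold, 1.08-fold and 4.88-fold higher, a mean log2 difference of 1.21 ± 1.09 (SD, n = 3 arrays; limma, unadjusted p = 0.22, adjusted p = 0.9998), so IBC-II was near pLKO while the other two were above it. By its brightest probe set, SREBF1 was at 397 (IBC-I), 241 (IBC-II), 221 (IBC-III) and 300 (pLKO). It was higher than pLKO only in IBC-I by this probe set, and never more than 1.36-fold away either way. The other tested probe set of SREBF1 was above pLKO in every array, with log2 differences of 0.50, 0.40 and 0.85. By its brightest probe set, SREBF2 was at 170 (IBC-I), 204 (IBC-II), 147 (IBC-III) and 148 (pLKO), with IBC-II the highest at 1.38-fold. The other tested probe sets of SREBF2 were highest in IBC-I, with log2 differences of 0.44, 0.27 and -0.33 and of 0.86, -0.50 and 0.83. SCAP, which escorts the SREBP precursors, was below pLKO by 1.35-fold (IBC-I), 1.01-fold (IBC-II) and 2.59-fold (IBC-III).

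In the fatty acid arm, the brightest probe sets of both enzymes that supply acetyl-CoA were higher in IBC-I. ACLY, which splits citrate, had a normalized intensity of 795 (IBC-I), 414 (IBC-II), 179 (IBC-III) and 393 (pLKO), which put IBC-I 2.02-fold above and IBC-III 2.20-fold below pLKO. Its other tested probe sets lay below pLKO in IBC-I, with log2 differences of -0.70 and -0.58. ACSS2, which activates acetate, was 2.03-fold, 1.45-fold and 1.17-fold higher in IBC-I, IBC-II and IBC-III. ME1, a source of NADPH, stayed within 1.42-fold of pLKO by its brightest probe set. Its other tested probe set gave log2 differences of -0.93, -0.21 and -2.06.

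The enzymes of malonyl-CoA and palmitate synthesis were lower in IBC-III. FASN, the fatty acid synthase, had a normalized intensity of 1444 (IBC-I), 1303 (IBC-II), 240 (IBC-III) and 1370 (pLKO). It was within 1.05-fold of pLKO in IBC-I and IBC-II, whereas IBC-III was 5.72-fold lower. ACACA, the cytosolic acetyl-CoA carboxylase, was at 145 (IBC-I), 138 (IBC-II) and 110 (pLKO), while IBC-III lay at the floor, at least 6.85-fold lower. ACACB, the carboxylase at mitochondria, was below pLKO in every array, by 1.79-fold, 1.31-fold and 1.63-fold.

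By their brightest probe sets, the 4 measured genes of elongation and desaturation were below pLKO in IBC-II and IBC-III. SCD, which puts the first double bond into saturated fatty acids, had a normalized intensity of 3724 (IBC-I), 1482 (IBC-II), 859 (IBC-III) and 2206 (pLKO). It was 1.69-fold higher in IBC-I, and 1.49-fold and 2.57-fold lower in IBC-II and IBC-III. A second probe set of SCD gave log2 differences of 0.66, -0.17 and 0.13, so IBC-III was not lower by it. FADS2, the delta-6 desaturase, was at 67.5 in IBC-I, 49.8 in IBC-II, the floor in IBC-III and 103 in pLKO. It was lower in every array, by 1.53-fold (IBC-I), 2.08-fold (IBC-II) and at least 6.46-fold (IBC-III). The mean log2 difference was -1.45 ± 1.09 with IBC-III at the floor (SD, n = 3 arrays; limma, unadjusted p = 0.15, adjusted p = 0.9998). ELOVL5 was also below pLKO in every array, by 1.78-fold, 1.23-fold and 3.63-fold, and ELOVL6 was 2.16-fold higher in IBC-I but 1.07-fold and 1.63-fold lower in IBC-II and IBC-III. Both lengthen fatty acids.

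LPIN1, a phosphatidate phosphatase that makes diacylglycerol, was the most even of the members. Its normalized intensity was 105 (IBC-I), 100.1 (IBC-II), 100.4 (IBC-III) and 62.4 (pLKO). The fold differences were 1.68, 1.60 and 1.61, a mean log2 difference of 0.71 ± 0.04 (SD, n = 3 arrays; limma, unadjusted p = 0.32, adjusted p = 0.9998).

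Counted by array, 13 of the 32 members were at least 1.5-fold higher in IBC-I (40.6%, beside 19.8% of all genes tested) and 5 were lower (15.6%, beside 21.1%). With the second brightest probe set of each gene that has several, the higher members in IBC-I numbered 6 (18.8%, beside 18.3% of all genes), so the larger share over all members was not seen there. By arm they were 2 of 17 sterol genes (11.8%) and 4 of 11 fatty acid genes (36.4%). Members with 1 probe set kept it in this count. Some second probe sets of members, such as those of FASN, ACACA and FADS2, failed the filter and lay at the floor on every array, which fixed their difference at 0. In IBC-II 3 members were higher (9.38%, beside 12.2%) and 3 lower (9.38%, beside 13.6%). In IBC-III 5 were higher (15.6%, beside 26.6%) and 14 lower (43.8%, beside 35.1%). By the brightest probe sets, the higher members of IBC-I came from both arms, 7 from the sterol arm, 5 from the fatty acid arm and INSIG1. IBC-I was the highest of the 4 arrays for 8 of 17 sterol genes, 1 of 4 regulators and 7 of 11 fatty acid genes, while it was the highest for 23.3% of all genes tested. Some margins were small, such as 1444 against 1370 in pLKO for FASN and 105 against 100.4 in IBC-III for LPIN1. In the intensities as deposited, HMGCS1, SQLE, DHCR7, SCD and ELOVL6 were the only members highest in IBC-I. The matching share over all genes was not computed.

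The medians of the arms lay furthest apart in IBC-III. The median log2 difference of the sterol arm was 0.27 (IBC-I), -0.08 (IBC-II) and 0.11 (IBC-III), and that of the fatty acid arm was 0.41, -0.10 and -1.14, beside 0.01, 0.00 and -0.11 for all genes tested. The sterol median minus the fatty acid median was therefore -0.14 (IBC-I), 0.02 (IBC-II) and 1.24 (IBC-III). In IBC-III, 8 of 11 fatty acid genes (72.7%) were at least 1.5-fold lower and 1 (9.09%) was higher, while 5 of 17 sterol genes (29.4%) were lower and 3 (17.6%) higher. Over all genes tested, 35.1% were lower and 26.6% higher in IBC-III. The 3′/5′ control ratios were also highest in IBC-III, 42.6 for ACTB and 13.1 for GAPDH, and their part in this difference was not tested. With the second brightest probe set of each gene in place of the brightest, the difference between the arms in IBC-III was -1.25, opposite in sign, with the second probe sets of FASN and FADS2 among those at the floor on every array.

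**Figure D3:**
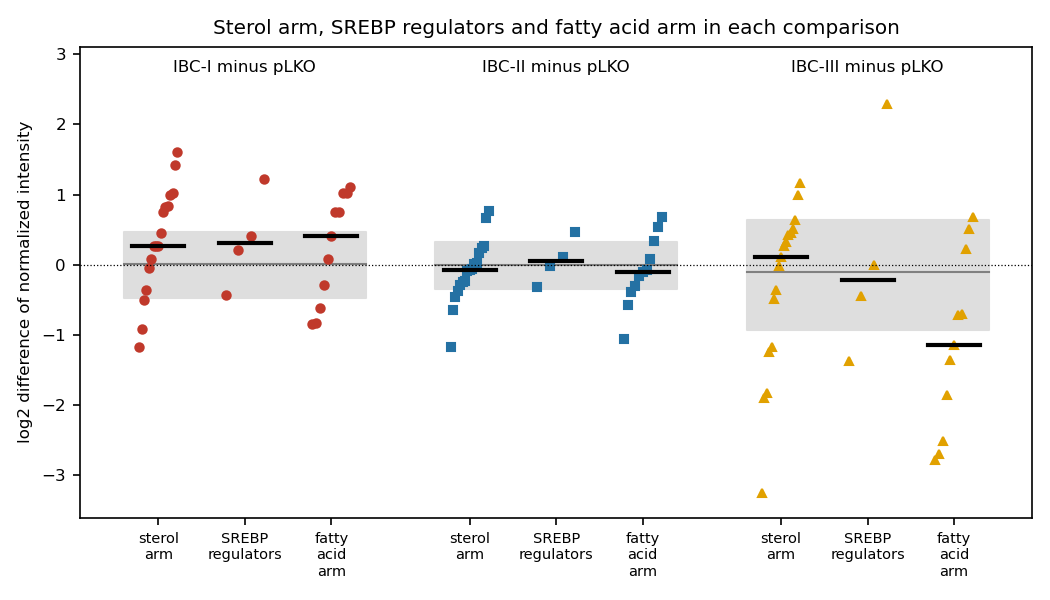
Each symbol is the log2 difference of a member from pLKO (y axis) in IBC-I, IBC-II or IBC-III, by arm (x axis), with a black bar at the median of the arm and a grey band over the middle 50% of all 12726 genes tested, a grey line marking their median. The black bars of the arms lie inside the grey band in each array except that of the fatty acid arm in IBC-III, at -1.14.

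IBC-I and IBC-II, the 2 DCD shRNA arrays with the lower 3′/5′ ratios, were also set against each other, a comparison without pLKO. In IBC-I against IBC-II, 11 of 32 members were at least 1.5-fold higher (34.4%, beside 19.9% of all genes tested) and 1, MVD, was lower (3.12%, beside 19.3%). The median log2 difference between IBC-I and IBC-II was 0.32 for the sterol arm, 0.15 for the fatty acid arm and 0.01 for all genes. By the brightest probe sets, the difference was largest for SQLE (2.25), followed by SCD (1.33), ELOVL6 (1.21), DHCR7 (1.15), INSIG1 (1.11) and HMGCS1 (1.10). The other tested probe sets gave -0.15 for HMGCS1, -0.007 for DHCR7 and 0.16 and 0.34 for INSIG1. Those of SQLE gave 1.29, 1.57 and -0.87, those of SCD 0.83 and 0.92, and those of ELOVL6 0.63 and 0.50. IBC-I had the higher ACTB ratio of these 2 arrays, 9.67 against 2.58 in IBC-II, and the part of this was not tested.

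The counts moved with the scaling of the arrays. Centring each array on its median moved the log2 median of all genes to -0.38 (IBC-I), 0.09 (IBC-II) and -0.54 (IBC-III), and leaving the values as deposited moved it to -0.43, 0.36 and -1.08. Higher and lower members under median centring were then 4 and 11 (IBC-I), 5 and 2 (IBC-II), and 1 and 20 (IBC-III), with 10.1%, 16.8% and 14.6% of all genes higher and 38.6%, 12.5% and 48.6% lower. As deposited they were 3 and 11 (IBC-I), 9 and 2 (IBC-II), and 1 and 28 (IBC-III), with 9.27%, 32.8% and 4.54% of all genes higher and 41%, 7.05% and 68.9% lower. Relative to the median of all genes, the fatty acid arm stood at -1.03 in IBC-III after quantile normalization, at -1.26 after median centring and at -1.34 as deposited. The sterol arm in IBC-I stood 0.26, 0.14 and 0.14 above all genes under the same settings, and in IBC-III it stood at 0.22, -0.20 and -0.20. The ratio of deposited intensities to pLKO for SC5D was 1.31 (IBC-I), 2.17 (IBC-II) and 0.86 (IBC-III), and for LPIN1 it was 1.21, 2.10 and 0.74, so neither reached 1.5-fold in all 3 without normalization. In IBC-III, INSIG1 was the only member with a deposited intensity above that of pLKO (ratio 1.85), and SQLE, LSS, EBP, DHCR7 and HSD17B7, above pLKO after quantile normalization, had ratios of 0.50, 0.55, 0.62, 0.53 and 0.78. STARD4 and FADS2 were at least 1.5-fold lower in all 3 arrays under quantile normalization, median centring and as deposited.

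Probe sets of the same gene did not always give the same direction. In the 17 members with several tested probe sets, the median range of their log2 differences was 1.15 (IBC-I), 0.50 (IBC-II) and 1.67 (IBC-III), beside 0.87, 0.52 and 1.41 for 5612 such genes overall. The brightest probe set exceeded the median of the others by a median of 0.56 (IBC-I), 0.06 (IBC-II) and 0.62 (IBC-III), beside 0.18, -0.05 and 0.16 overall. For INSIG1 in IBC-III the 3 probe sets gave log2 differences of 2.29, -1.13 and -1.91. For EBP in IBC-III the tested probe sets gave 0.64, -2.10 and -1.93, and for SQLE in IBC-III they gave 0.45, -2.11, 1.11 and -1.26. The direction of these 3 genes in IBC-III therefore depended on the probe set. So did that of others in IBC-III, such as DHCR7 (0.33 and -1.40), HMGCS1 (0.11 and -1.09) and the brightest and next brightest probe sets of IDI1 (0.42 and -0.58). In IBC-I the other probe sets of HMGCS1 and DHCR7 gave -0.29 and 0.07, against 1.02 and 1.42 for the brightest. The other probe set of SC5D was above pLKO in every array, by 1.15, 0.93 and 0.55 on the log2 scale, with pLKO at the floor. The other tested probe set of LPIN1 gave 0.19, 0.20 and 0.08, smaller than the brightest. ELOVL6 had a probe set above pLKO in all 3 arrays, by 1.57, 0.94 and 0.73, unlike its brightest.

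**Figure D4:**
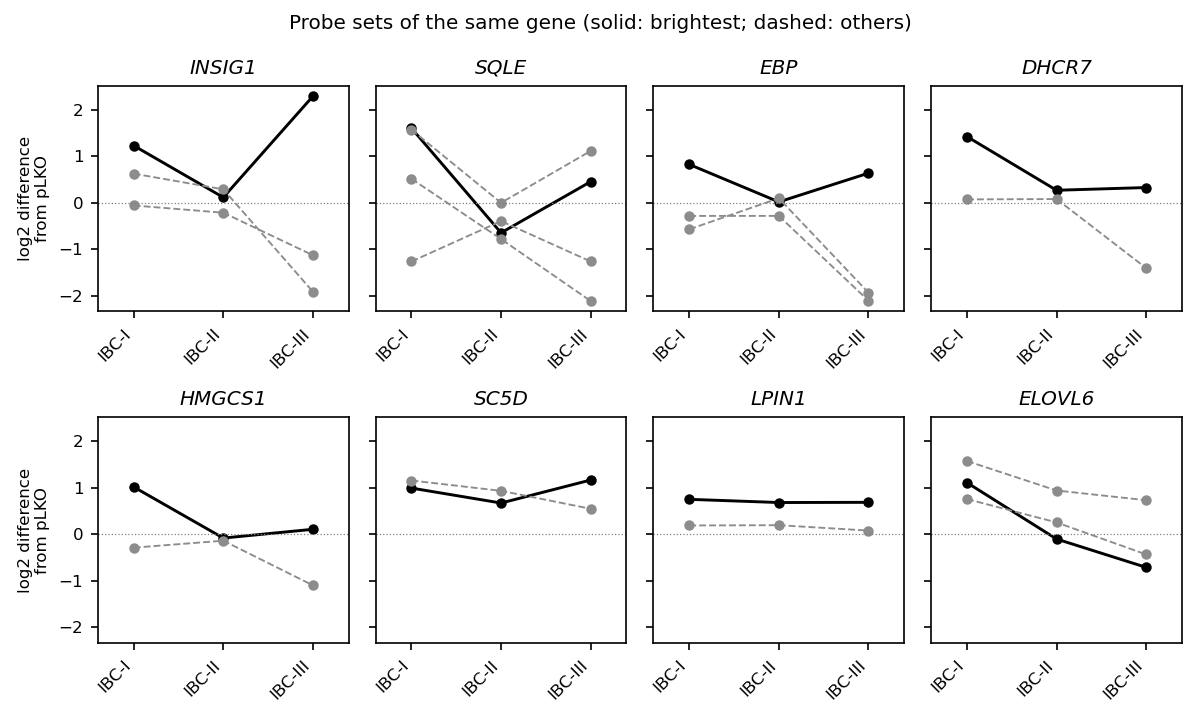
Each panel shows 1 gene, and each line joins the log2 differences from pLKO (y axis) of 1 tested probe set in IBC-I, IBC-II and IBC-III (x axis), black and solid for the brightest probe set and grey and dashed for the others. The lines of SC5D and LPIN1 stay above 0 in all 3 arrays, while those of INSIG1, SQLE, EBP, DHCR7, HMGCS1 and ELOVL6 spread to both sides of 0 in IBC-III.

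Other genes of these pathways, from lists that hold no member, also lay on both sides of pLKO. For the counts of each list, the shares over all genes tested were 18.9% above pLKO in all 3 arrays and 21.3% below. Of the other sterol synthesis genes, 5 of 7 listed passed the filter, 2 above pLKO in all 3 arrays, 2 below and 1 both ways. ERG28, which tethers the enzymes that demethylate sterols, had a normalized intensity of 353 (IBC-I), 241 (IBC-II), 252 (IBC-III) and 153 (pLKO) and was the only one at least 1.5-fold higher in every array. LBR, a sterol reductase of the nuclear envelope, had log2 differences of -0.62, -0.58 and -2.04 in IBC-I, IBC-II and IBC-III. GGPS1 and NUS1, which act on isoprenoid branches, differed by 0.67, 0.06 and 0.59 and by -0.19, -0.55 and -0.76 in the same arrays.

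Of the genes for SREBP processing and sterol handling, 9 of 10 passed the filter, 2 above pLKO in all 3 arrays and 3 below, with none at least 1.5-fold from it in every array. INSIG2, a second retention protein for SCAP, differed by 0.36, 0.45 and 0.65 on the log2 scale in IBC-I, IBC-II and IBC-III. The proteases that cleave SREBP were below pLKO in every array, with log2 differences of -0.36, -0.12 and -2.13 for MBTPS1 and of -0.68, -0.09 and -2.28 for MBTPS2. RNF139, a ubiquitin ligase of the endoplasmic reticulum, differed by -0.31, -0.22 and -0.43.

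Of the other fatty acid synthesis genes, 14 of 23 passed the filter, 2 above pLKO in all 3 arrays and 7 below. TECR, which completes each round of elongation, was above pLKO by 0.84, 0.45 and 1.13 on the log2 scale in IBC-I, IBC-II and IBC-III. MID1IP1, a partner of acetyl-CoA carboxylase, differed by -0.53, -0.70 and -0.73, and the desaturase SCD5 by -0.58, -0.47 and -1.27. ACSL1, which activates long-chain fatty acids, differed by -0.37, -0.31 and -0.84. Of the glyceride synthesis genes, 7 of 10 passed, and GPAM, which starts glycerolipid synthesis, was above pLKO in every array, as LPIN1 was. GPAM had a normalized intensity of 195 (IBC-I), 175 (IBC-II), 201 (IBC-III) and 87.2 (pLKO), differences of 1.16, 1.00 and 1.21 on the log2 scale. As deposited, ERG28, GPAM, TECR and INSIG2 had intensities below pLKO in IBC-III, with ratios of 0.66, 0.95, 0.82 and 0.66. No gene of these 4 lists passed limma after adjustment over all probe sets.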

How the data were processed

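Per the labels, total RNA of 1 pLKO culture and 3 DCD shRNA derivatives was hybridized to Affymetrix arrays. The authors deposited 1 intensity on a linear scale for each probe set of an array. The study names dChip, but which program made this table is not named in the sources used here. Intensities of 0 (2 values) were set to 0.1, arrays were quantile normalized, values under 16 were set to 16, and log2 was taken. After leaving out 62 control probe sets, 27307 probe sets reached the median of mean log2 and were tested. Genes came from the platform annotation: 41097 probe sets had 1 gene, 1801 several and 11777 none, and 41043 of the first were matched by gene ID to current symbols. Differences were taken per array, and limma (version 3.58.1, R 4.3.3) compared the 3 arrays with pLKO, after tests on simulated data. The precision is limited by 4 arrays. In the intensities as deposited, before normalization, 43.9% of probe sets lay under 16 (IBC-I), 39.3% (IBC-II), 55.1% (IBC-III) and 43.4% (pLKO). Values on all arrays were given for members at least 1.5-fold from pLKO in the same direction in all 3 comparisons and for HMGCS1, SQLE, INSIG1, SREBF1, SREBF2, FASN, SCD and ACACA, and others were chosen after their values were seen. From each further list, up to 4 genes with the largest smallest change in the same direction were named. The members and lists were chosen with earlier results of these data known. Alternatives were median centring, no normalization, floors of 1 and 64, other probe sets, other filters, other fold rules, limma with a trend and each DCD shRNA array left out. Figures were drawn with matplotlib 3.10.9.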

Additional observations from a re-analysis of the deposited data

How the results depend on the processing

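The sterol arm median in IBC-I, 0.27 by the settings used, was -0.24 under median centring, -0.28 as deposited and 0.073 with the second brightest probe set. In IBC-II it was 0.30 as deposited. In IBC-III it was -0.74 under median centring, -1.28 as deposited, -0.49 with the mean of all probe sets and -1.25 with the second brightest. The fatty acid arm median in IBC-I, 0.41 by the settings used, was -0.10 under median centring and -0.14 as deposited. It was 0.04 with the mean of all probe sets and 0 with the second brightest. The fatty acid arm median in IBC-III was -2.42 as deposited and 0 with the second brightest probe set. The sterol minus fatty acid difference in IBC-I, -0.14 by the settings used, was 0.12 with the mean of all probe sets and 0.07 with the second brightest. The sterol minus fatty acid difference in IBC-III was 0.28 with the mean of all probe sets and reversed to -1.25 with the second brightest. The count of members at least 1.5-fold higher in all 3 comparisons, 2 by the settings used, was 0 under median centring, 0 as deposited, 1 with the mean of all probe sets (SC5D), 1 with the second brightest (ELOVL6), and 0 at 2-fold and at 3-fold. The count of lower members, also 2, was 1 with a floor of 64 (FADS2), 1 with the mean of all probe sets (STARD4), 1 with the second brightest (STARD4, which has no other) and 0 at 2-fold and at 3-fold. Leaving out 1 array at a time gave 2 to 4 higher and 2 to 4 lower members, with the 4 in each case reached without IBC-II (EBP, SC5D, INSIG1 and LPIN1 higher, and MVD, STARD4, ACACB and ELOVL5 lower, without FADS2, after the 3 remaining arrays were normalized again). limma called 0 members in every alternative run. Of 320 alternative values of single members, 273 moved by less than the spread over the 3 comparisons and 47 by more, and 21 of 32 members changed sign in at least 1. limma with a floor of 64, where most probe sets had no spread, and with the mean of all probe sets was not run. The causes of these changes were not tested. No paired analysis was possible because pLKO has 1 array, so the groups share fewer than 2 replicate numbers. Signal over background limits MVD, STARD4 and FADS2, whose values lay near the floor, and a fold difference at the floor is only a bound.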

Other observations

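Genes of sterol export and of fatty acid oxidation were measured on the same arrays. Of the LXR pathway, which responds to excess sterol, 5 of 7 listed genes passed the filter, 2 above pLKO in all 3 DCD shRNA arrays and 1 below, and none was at least 1.5-fold from pLKO in every array. Over all genes tested, 18.9% were above pLKO in all 3 arrays and 21.3% below. MYLIP, a ubiquitin ligase that lowers lipoprotein uptake, had a normalized intensity of 1058 (IBC-I), 507 (IBC-II), 2738 (IBC-III) and 432 (pLKO). The brightest probe set of INSIG1 had the same order of arrays after normalization, but its other probe sets did not. As deposited, the orders differed, since MYLIP was at 764 (IBC-I) and 820 (IBC-II) and INSIG1 at 222 and 205. APOE, a lipoprotein component, was above pLKO by 0.93, 0.26 and 1.43 on the log2 scale in IBC-I, IBC-II and IBC-III, and the exporter ABCG1 differed from it by -0.74, -0.54 and -1.73.

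Of the fatty acid oxidation genes, 12 of 15 passed the filter, 1 above pLKO in all 3 arrays, 2 below and 9 both ways. ACADM, the medium-chain acyl-CoA dehydrogenase, was at 59.8 (IBC-I), 166 (IBC-II), 17.0 (IBC-III) and 215 (pLKO). It was below pLKO in every array, with log2 differences of -1.85, -0.38 and -3.66. HADHA, a subunit of the mitochondrial trifunctional protein, was above pLKO by 1.11, 0.26 and 0.65, while ETFDH differed by at most -0.17. As deposited, HADHA was below pLKO in IBC-III, with a ratio of 0.60. The median log2 difference of the oxidation list was -0.18 (IBC-I), 0.21 (IBC-II) and -1.002 (IBC-III), beside -1.14 for the fatty acid synthesis arm in IBC-III. The 3′/5′ ratio of ACTB was highest in IBC-III, and its part in these values was not tested.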
